A study of Mus musculus with 95 samples.

Results

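Sterol and fatty acid synthesis in mouse pancreatic islets was followed through 31 genes, picked by symbol with earlier results of these data known. They comprise 18 sterol enzymes, 2 sterol regulators, 1 sterol carrier, 9 fatty acid enzymes and 1 fatty acid regulator. All 31 were found among the 20638 genes of the count table. Each of them had a CPM, its count scaled to a common library total, of at least 1 in 10 or more libraries, the limit that kept 15841 genes. Islets are the hormone-secreting cell clusters of the pancreas, and poly(A) RNA of whole islets was sequenced. The mice belonged to the founder strains of the Diversity Outbred stock and all received the high-fat, high-sugar diet, labelled 45% fat.

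The set held 95 libraries, called here by the numbers in their labels, which run from 1 to 100 with 5 missing. Strain, sex and age were not given per library, so no groups were compared, and each gene is described by its lowest, median and highest value over the libraries. No label says that every library came from its own animal. Total counts ran from 16411809 to 34357253 with a median of 26552738. Markers of beta cells, 10 genes with insulin among them, took between 6.23% and 25.2% of counts, with a median of 17.7%. The 18 acinar genes, which mark the enzyme-secreting tissue around islets, took between 0.232% and 37.2%, with the highest share in library 54. Macrophage markers took a median of 0.00797% and reached 0.279% in library 97. In whole-islet RNA, fewer cells of a type and less RNA per cell cannot be told apart.

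Cholesterol is made from acetyl-CoA through mevalonate, farnesyl diphosphate, squalene and lanosterol. Fatty acids are made from the same acetyl-CoA, which ATP-citrate lyase produces in the cytosol, and are then elongated and desaturated. Both pathways answer to the SREBP transcription factors, held in the endoplasmic reticulum by INSIG proteins while sterols are plentiful. SREBP-2, from Srebf2, is best known for sterol genes, and SREBP-1, from Srebf1, for fatty acid genes. SREBPs are weak activators on their own and act beside NF-Y, which binds CCAAT boxes, and Sp1, which binds GC boxes. Beta cells depend on cholesterol in their granule and plasma membranes, and make malonyl-CoA, the product of Acaca, when glucose is high.

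The promoter stretches below belong to genes whose levels moved with those of Hmgcs1 over the libraries (Idi1, Cyp51, Msmo1 and Insig1), to Hmgcs1 itself, and to Fasn for contrast. They are the 250 bases before the RefSeq transcription start in build GRCm38.p6, read 5′ to 3′ on the strand of the gene. The Hmgcs1 stretch is chr13:119690101-119690350 on the plus strand and that of Idi1 is chr13:8885356-8885605, also plus. Cyp51 is shown at chr5:4104698-4104947 and Msmo1 at chr8:64733579-64733828, both on the minus strand. The Insig1 stretch is chr5:28071162-28071411 on the plus strand, and that of Fasn is chr11:120824548-120824797 on the minus strand. Capitals mark the sterol regulatory element TCACCCCAC, which SREBPs bind, and the CCAAT box, written ATTGG where it lies on the other strand.
Hmgcs1: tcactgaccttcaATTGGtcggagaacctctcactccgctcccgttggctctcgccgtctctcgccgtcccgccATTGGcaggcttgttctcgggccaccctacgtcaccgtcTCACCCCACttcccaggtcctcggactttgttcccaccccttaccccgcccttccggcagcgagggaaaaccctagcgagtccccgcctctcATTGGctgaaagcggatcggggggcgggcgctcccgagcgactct
Idi1: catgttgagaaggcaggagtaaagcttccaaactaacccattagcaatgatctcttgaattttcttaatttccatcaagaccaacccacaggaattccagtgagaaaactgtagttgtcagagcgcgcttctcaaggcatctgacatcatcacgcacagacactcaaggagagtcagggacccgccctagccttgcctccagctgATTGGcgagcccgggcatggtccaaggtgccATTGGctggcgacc
Cyp51: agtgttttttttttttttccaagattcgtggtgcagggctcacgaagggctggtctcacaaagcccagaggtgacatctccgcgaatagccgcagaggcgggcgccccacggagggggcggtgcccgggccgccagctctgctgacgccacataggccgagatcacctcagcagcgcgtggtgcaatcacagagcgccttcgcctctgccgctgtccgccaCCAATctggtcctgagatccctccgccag
Msmo1: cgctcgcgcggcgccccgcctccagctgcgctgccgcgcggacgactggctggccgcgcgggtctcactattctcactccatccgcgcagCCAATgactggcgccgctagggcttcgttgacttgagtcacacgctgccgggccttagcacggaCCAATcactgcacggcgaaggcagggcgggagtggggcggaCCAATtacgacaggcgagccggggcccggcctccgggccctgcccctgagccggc
Insig1: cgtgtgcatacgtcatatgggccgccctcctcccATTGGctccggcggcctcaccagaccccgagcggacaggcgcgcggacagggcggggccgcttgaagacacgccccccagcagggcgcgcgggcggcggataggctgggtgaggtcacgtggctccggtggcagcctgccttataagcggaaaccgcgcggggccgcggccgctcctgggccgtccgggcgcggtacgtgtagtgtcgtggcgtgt
Fasn: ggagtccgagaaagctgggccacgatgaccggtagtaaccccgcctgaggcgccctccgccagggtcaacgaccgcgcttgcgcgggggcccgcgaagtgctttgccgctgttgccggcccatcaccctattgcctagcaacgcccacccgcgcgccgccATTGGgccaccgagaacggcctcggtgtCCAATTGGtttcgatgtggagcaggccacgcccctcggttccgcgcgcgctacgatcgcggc

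Motifs were searched on both strands of a 300-base window per RefSeq start, from 250 bases before to 50 after it. Of the 31 genes, 24 had an entry that was used here, and Fdps, Fdft1, Sqle, Stard4, Scd1, Scd2 and Fads1 had none. A gene with several starts had a window for each, so the 18 windows of sterol enzymes came from 15 genes. The 7 windows of fatty acid enzymes came from 6 genes. Exact matches to TCACCCCAC lay in 1 of the 18 windows of sterol enzymes, against 0 of the 7 windows of fatty acid enzymes and 0.551% of all 32851 windows. That window was that of Hmgcs1, with the match 137 bases before the start. CCAAT was present in 14 of the 18 sterol windows (77.8%), in 3 of the 7 fatty acid windows (42.9%) and in 37.4% of all windows. At least 2 CCAAT boxes lay in 9 of the 18 sterol windows (50.0%) and in 11.7% of all. Hmgcs1 held 4, of which 1 lies in the 50 bases after the start that are not printed, and Msmo1 held 3. In Fasn 3 matches were found, and the pair nearest the start overlap on opposite strands. The GC box GGGCGG occurred in 83.3% of sterol windows, 42.9% of fatty acid windows and 35.7% of all. For the E-box CACGTG these shares were 16.7%, 0 of 7 windows and 7.15%. No position of the printed stretches belonged to more than 1 kind of motif. These matches describe the letters and do not show binding.

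Within the sterol pathway, levels differed widely between enzymes. Per kilobase of exon, the scale used for comparing genes, the highest median was that of Sqle at 17.2 CPM per kb and the lowest that of Hsd17b7 at 0.988. Exon length was taken over all annotated transcripts of a gene and can exceed that of the transcripts present, so these comparisons depend on the annotation. Sqle, squalene epoxidase, had a median of 95.3 CPM, with a lowest value of 50.2 in library 97 and a highest of 136 in library 18. Hmgcs1, the synthase that condenses acetyl-CoA into HMG-CoA, had a median of 58.7 CPM, from 34.3 in library 40 to 125 in library 29. Its highest value was 3.64-fold the lowest. Acat2, the thiolase that feeds it, ran from 4.54 to 13.2 CPM around a median of 7.50.

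The next steps phosphorylate mevalonate and turn it into isoprenoids. Mvk, mevalonate kinase, was narrow in range, with 5.27 to 12.8 CPM around 7.59. Pmvk, the phosphomevalonate kinase, had a median of 13.1 CPM and ran from 4.69 in library 8 to 24.6 in library 30. Between its 10th and 90th percentiles it spanned 1.57 on the log2 scale, the widest of the 18 enzymes. Mvd, the decarboxylase, had a median of 5.38 CPM (3.25 to 11.4). Idi1, the isomerase of isopentenyl diphosphate, reached 40.3 CPM in library 13, against a lowest value of 9.10 and a median of 17.4. Fdps, which makes farnesyl diphosphate, had a median of 36.5 CPM (23.8 to 62.0). Fdft1, squalene synthase and the entry to the sterol branch, had 39.0 CPM and ran from 21.5 in library 97 to 81.7 in library 32.

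Beyond squalene the spread was uneven. Lss, which closes the ring to lanosterol, had a median of 35.9 CPM (18.7 to 53.0). Cyp51, the lanosterol demethylase, had a median of 37.9 CPM and reached 98.2 in library 96, 4.48-fold its lowest value. Msmo1, which begins the removal of the remaining methyl groups, ran from 22.5 CPM in library 97 to 113 in library 32 around 54.7. Nsdhl and Hsd17b7, its partners in demethylation, had medians of 10.2 CPM (6.38 to 16.6) and 5.05 CPM (2.46 to 11.2). Tm7sf2, a sterol reductase, had a median of 10.3 CPM (4.60 to 16.2), and the isomerase Ebp had 15.1 CPM (8.70 to 20.7). The desaturase Sc5d had 14.5 CPM (10.1 to 28.1). Dhcr7, a late reductase whose substrate is also the precursor of vitamin D, spanned 0.41 on the log2 scale between percentiles, the narrowest of the 31 genes, with a median of 16.8 CPM (10.8 to 26.6).

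Among the sterol regulators, Srebf2 had a median of 115 CPM, from 78.7 in library 95 to 187 in library 17. Insig1, which retains SREBPs in the endoplasmic reticulum and is itself an SREBP target, had a median of 139 CPM. Its lowest value was 47.2 in library 97 and its highest 283 in library 29, the library that was also highest for Hmgcs1 and Fdps. Stard4, a carrier of cholesterol between membranes, had a median of 25.7 CPM (15.8 to 41.8).

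**Figure D1:**
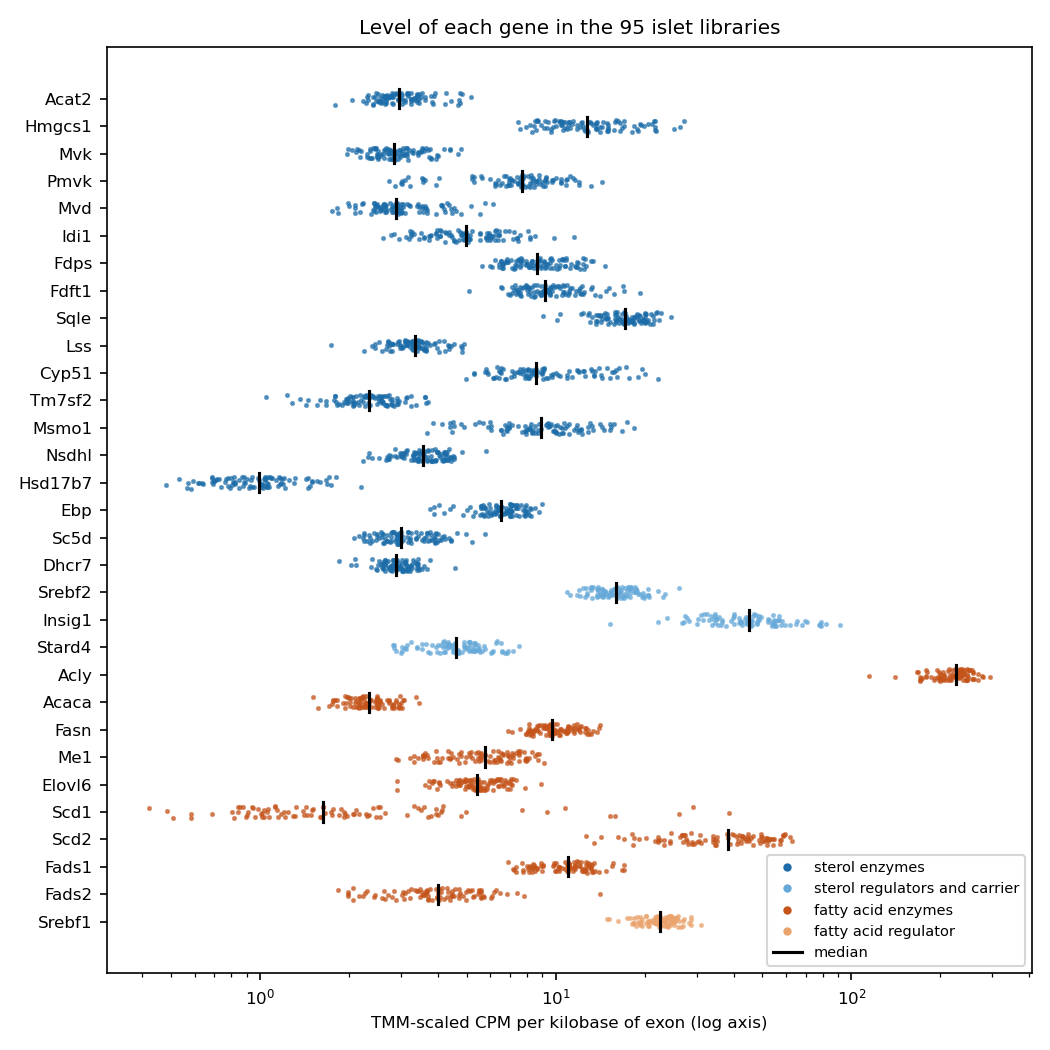
Level of each of the 31 genes in 95 islet libraries, as TMM-scaled CPM per kilobase of exon on a log axis; each point is a library and black bars are medians. Acly stands highest at a median of 226 CPM per kb, and Scd1 has the longest tail, up to 38.7 from a median of 1.63.

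Acly stood far above the other fatty acid enzymes. This ATP-citrate lyase had a median of 1192 CPM, from 605 in library 97 to 1554 in library 56, or 226 CPM per kb at the median. Acaca, acetyl-CoA carboxylase, had 39.9 CPM (25.8 to 59.0), and Fasn, the fatty acid synthase, had 106.5 CPM (75.7 to 154). Per kb these were 2.34 and 9.73 CPM. Fasn had the smallest fold of the 31 genes between its highest and lowest libraries, 2.04. Me1, the malic enzyme that supplies NADPH, ran from 11.1 to 35.2 CPM around 22.1. Elovl6, which elongates palmitate, had a median of 34.7 CPM (18.7 to 57.1).

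The desaturases held the extremes. Scd2, a stearoyl-CoA desaturase, had a median of 209 CPM, from 69.4 in library 4 to 344 in library 94. Its relative Scd1 had a median of 7.96 CPM but ran from 2.06 in library 83 to 189 in library 97, a 92.0-fold range. The ratio of Scd2 to Scd1 in CPM had a median of 24.1 and ran from 98.7 in library 26 to 0.781 in library 97. Fads1 and Fads2 desaturate polyunsaturated fatty acids. Their medians were 53.0 CPM (33.2 to 82.2) and 13.2 CPM (6.06 to 46.3), and library 90 was highest for Fads2. The next highest Fads2 value was 25.7 CPM in library 6, so the top of its range rested on library 90. Srebf1, the regulator, had a median of 127 CPM and stayed between 84.0 in library 100 and 175 in library 42.

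Some of these genes share sequence with other genes, so their counts may hold reads of a copy. The share of 31-base words also found in another gene was 43.8% for Acat2 (mostly Acat3), 33.4% for Acaca, 30.0% for Me1, 27.9% for Fdps, 18.8% for Idi1, 14.3% for Fdft1 and 12.9% for Tm7sf2. For Scd1 and Scd2 it was 8.14% and 6.81%, shared mostly with Scd3. Exons of Ctsb on the opposite strand cover 18.3% of the Fdft1 exon bases, and those of Gm48342 cover 12.1% of Hmgcs1. On the same strand, exons of Gm43738 cover 26.7% of Fdps and those of Vps51 12.1% of Tm7sf2, where strand cannot divide the reads. Whether counting used strand was not given in the sources used here, so the values of these genes are uncertain to that degree.

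Spread over libraries was expressed as edgeR's biological coefficient of variation per gene. Every source of difference between libraries enters it, technical ones included. The sterol enzymes had a median of 22.9% (13.4% to 35.3%) and the fatty acid enzymes 21.0% (15.6% to 97.2%), beside 26.1% over all kept genes. Above 50% stood 1 of the 31 genes, Scd1, while 24.3% of the kept genes did. This comparison was not matched for level. The median of the gene medians was 14.4 CPM over all kept genes and 34.7 CPM over the 31. Dhcr7 had the lowest coefficient, at 13.4%, followed by Srebf1 at 14.2% and Acly at 15.6%. Msmo1 at 35.3%, Pmvk at 35.2% and Cyp51 at 34.9% led the sterol enzymes. Without libraries numbered above 90, the coefficient of Scd1 was 53.7% in place of 97.2%.

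The 6 highest values of Scd1 were 189, 143, 128, 77.6, 74.6 and 52.5 CPM in libraries 97, 99, 100, 92, 98 and 91. Without libraries numbered above 90, the highest value was 23.4 CPM in library 16 and the median 7.26. The 10 libraries numbered above 90 had a median of 63.5 CPM and a lowest value of 20.1. Macrophage markers took 0.279%, 0.199% and 0.202% of counts in libraries 97, 99 and 100, and T and B lymphocyte markers 0.207%, 0.111% and 0.121%. The medians of those shares over all libraries were 0.00797% and 0.00168%. Fibroblast and stellate markers took 0.166%, 0.155% and 0.155% there, against a median of 0.0385%, and beta cell markers 7.87%, 11.8% and 12.9%, against a median of 17.7%. Among the libraries above 90, library 94 alone had a macrophage share below the median over all libraries, at 0.00686%. Of 10 macrophage genes, Mrc1 and Aif1 had medians below 1 CPM, and of 10 lymphocyte genes 8 did, Cd3e and Cd4 among them. Lyz2, a macrophage lysozyme, was at 1279 CPM in library 97 and 12.9 at the median. Of the adipocyte markers, 4 of 9 were analysed here, and Cidec had a median of 0.0406 CPM. The adipocyte share thus rests on Fabp4, Pparg and Lipe, with medians of 8.79, 4.72 and 11.2 CPM. Whether these came from fat cells was not tested. The adipocyte share was 0.00592% in library 97, against a median of 0.00260% and a highest value of 0.00829% in library 78. Over all 95 libraries the rho of Scd1 with the macrophage share was 0.313, and it was 0.0927 without libraries above 90. The part of these cell types in the Scd1 level was not tested.

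Correlated pairs were counted within and between the enzyme groups. Spearman's rho of log2 CPM over the 95 libraries reached 0.5 in 25 of 153 pairs of sterol enzymes (16.3%) and in 3 of 36 pairs of fatty acid enzymes (8.33%). It did so in 1 of 162 pairs that joined a sterol with a fatty acid enzyme (0.617%), and in 2.66% of pairs of kept genes. These counts depended on which libraries were taken. In the 47 libraries numbered above 50, 48 sterol pairs (31.4%), 3 fatty acid pairs (8.33%) and 19 cross pairs (11.7%) did so, beside 6.37% of pairs of kept genes. In the 48 libraries numbered 50 or lower, it was 37 sterol pairs (24.2%), 5 fatty acid pairs (13.9%) and 6 cross pairs (3.70%), beside 5.21%. Cross pairs thus lay below the share of all pairs over the 95 libraries and in the lower numbers, and above it in the higher numbers. Over all 95, the median rho was 0.236 within the sterol enzymes, 0.191 within the fatty acid enzymes, 0.121 between them and -0.002 over all pairs of kept genes. These are descriptions over the same libraries, without a test. Neighbouring library numbers were alike, and depth and cell makeup are common to all genes of a library.

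**Figure D2:**
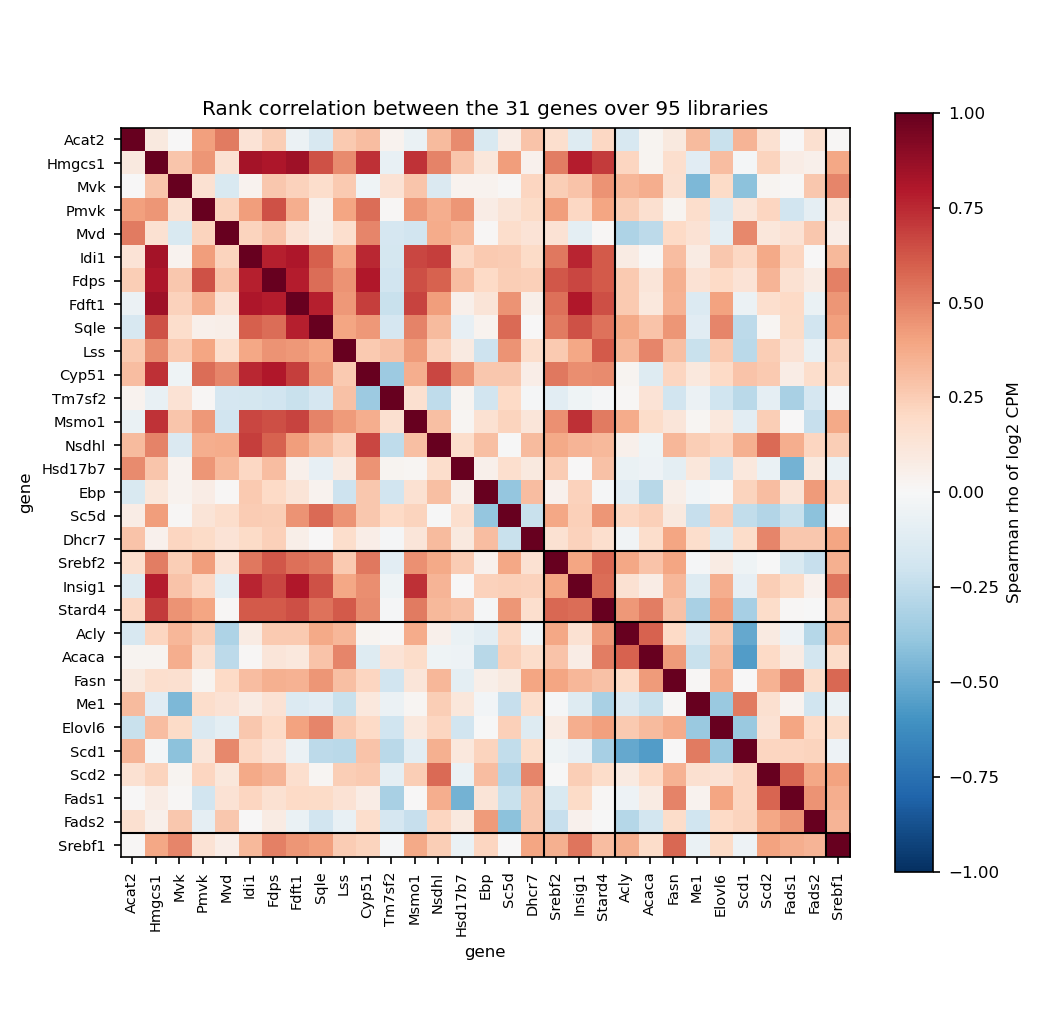
Spearman's rho between the 31 genes over 95 libraries, in pathway order; black lines divide sterol enzymes, sterol regulators and carrier, fatty acid enzymes and Srebf1. Many of the darkest cells lie among Hmgcs1, Idi1, Fdps, Fdft1 and Insig1, with a rho of 0.847 between Hmgcs1 and Fdft1. Others join these genes to Cyp51 (0.799 with Fdps) and Sqle (0.776 with Fdft1). Paler rows such as Mvk, Mvd and Tm7sf2 lie between these genes, while Acaca and Scd1 form the lowest pair at -0.557.

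Likeness to Hmgcs1 was counted first. Of the 20 other sterol genes, 9 had a rho of 0.5 or more with it, a level reached by 1.43% of kept genes. Fdft1 at 0.847, Idi1 at 0.830 and Fdps at 0.805 came closest, and they belong to the isoprenoid and squalene steps. Insig1 followed at 0.786, Cyp51 at 0.732, Msmo1 at 0.724, Stard4 at 0.699, Sqle at 0.635 and Srebf2 at 0.513. Nsdhl at 0.4997 stood just below the limit. Pairs without Hmgcs1 lay in the same range, with 0.806 for Idi1 and Fdft1, 0.802 for Fdft1 and Insig1 and 0.799 for Fdps and Cyp51. Other steps of the same pathway had a rho near 0 with it, which was 0.153 for Mvd, 0.111 for Ebp, 0.0957 for Acat2, 0.0399 for Dhcr7 and -0.0714 for Tm7sf2. With the fatty acid enzymes, 0 of 9 reached 0.5 and the median was 0.0712. In libraries up to number 50 and in those after it, Fdft1 had 0.808 and 0.893, Idi1 0.738 and 0.887, and Insig1 0.771 and 0.823. Srebf2, by contrast, was lower in those after it, as given below. In both subsets more kept genes reached 0.5 with Hmgcs1 than over all 95 libraries.

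Likeness to Fasn gave lower counts. Of the 9 other genes of the pathway, 1 reached a rho of 0.5 with Fasn, the regulator Srebf1 at 0.574, beside 0.821% of kept genes. Fads1 had 0.492, Acaca 0.429 and Elovl6 0.368, while Me1 had 0.00808 and Scd1 0.00318. The 3 pairs of fatty acid enzymes above 0.5 were Acly with Acaca at 0.590, Scd2 with Fads1 at 0.581 and Me1 with Scd1 at 0.516. Without libraries numbered above 90 the last of these was 0.423. In the other direction, Acaca and Scd1 had -0.557 and Acly and Scd1 -0.509, values that were -0.454 and -0.457 without those libraries. The pair that crossed the pathways was Nsdhl with Scd2, at 0.568.

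Likeness to the regulators was looked at after the values above were seen. Of 18 sterol enzymes, 6 had a rho of 0.5 or more with Srebf2, against 0 of 9 fatty acid enzymes and 0.461% of kept genes. The 6 were Fdps at 0.621, Fdft1 at 0.547, Idi1 at 0.529, Cyp51 at 0.524, Sqle at 0.520 and Hmgcs1 at 0.513. These values hold for the 95 libraries together. The rho of Srebf2 with Hmgcs1 was lower in libraries numbered above 50, as given below, and for the other enzymes no such split is given. With Srebf1, 1 of 18 sterol enzymes (Fdps, 0.502) and 1 of 9 fatty acid enzymes (Fasn, 0.574) did, beside 0.518% of kept genes. Insig1 had 0.536 with Srebf1 and 0.396 with Srebf2.

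For 12 pairs of genes, a regulator or leading enzyme with a known target or neighbour, the relation was tested by two-sided permutation with 100000 resamples and Benjamini-Hochberg adjustment over the 12. Spearman's rho passed an adjusted p of 0.05 in 6 pairs and Pearson's r in 8. The p-values of all 12 pairs are too small, since libraries with neighbouring numbers were alike. The genes were also chosen with earlier results of these data known, so passing the test is no independent support. Insig1 and Hmgcs1 had a rho of 0.786 and an r of 0.801, both with a permutation p of 1e-05, the smallest the resamples can give, and an adjusted p of 2.4e-05. The r was 0.792 without libraries 97 and 29, the farthest from the median of Insig1. Hmgcs1 and Sqle gave a rho of 0.635 and an r of 0.602, with the same p-values, and an r of 0.598 without libraries 29 and 70. Srebf2 and Hmgcs1 gave 0.513 and 0.497, again with the same p-values, and an r of 0.492 without libraries 17 and 30. Within libraries numbered 50 or lower this rho was 0.741 (adjusted p = 3e-05), while within those above 50 it was 0.248 (adjusted p = 0.184). Hmgcs1 and Dhcr7, an early and a late enzyme of the pathway, had a rho of 0.0399 (p = 0.701, adjusted p = 0.765) and an r of 0.0862 (p = 0.406, adjusted p = 0.443), and r was 0.0831 without libraries 29 and 70.

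Among fatty acid pairs, Srebf1 and Fasn had a rho of 0.574 and an r of 0.559, both with a permutation p of 1e-05 and an adjusted p of 2.4e-05. Without libraries 100 and 97 the r was again 0.559. Fads1 and Fads2, neighbours on chromosome 19, had 0.446 and 0.494 with the same p-values, and an r of 0.494 without libraries 50 and 10. Their rho was 0.498 in libraries numbered 50 or lower (adjusted p = 0.00098) and 0.252 in those above 50 (adjusted p = 0.184). For Acly and Fasn the rho of 0.196 did not pass (p = 0.0549, adjusted p = 0.0823), and the r of 0.229 did (p = 0.0256, adjusted p = 0.0385). That r was 0.193 without libraries 97 and 100. Scd1 and Scd2 had a rho of 0.213 (p = 0.0375, adjusted p = 0.0643) and an r of 0.168 (p = 0.103, adjusted p = 0.137), with an r of 0.206 without libraries 97 and 99. Me1 and Fasn had a rho of 0.00808 (p = 0.937, adjusted p = 0.937) and an r of -0.00557 (p = 0.958, adjusted p = 0.958), with an r of 0.0401 without libraries 38 and 7. Srebf1 and Scd1 had a rho of -0.0522 (p = 0.617, adjusted p = 0.74) and an r of -0.230 (p = 0.0247, adjusted p = 0.0385). This r rests on libraries 100 and 97, without which it was -0.0365, and the sign of rho turned under other scalings, such as 0.00661 with DESeq2 size factors.

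The remaining pairs crossed the pathways. Srebf2 and Srebf1 had a rho of 0.358 (permutation p = 0.00049, adjusted p = 0.00098) and an r of 0.343 (p = 0.00065, adjusted p = 0.0013), with an r of 0.290 without libraries 17 and 30. In libraries numbered above 50 the rho was 0.185 (adjusted p = 0.284), and in the others 0.523 (adjusted p = 0.000408). Hmgcs1 and Fasn had a rho of 0.165 (p = 0.11, adjusted p = 0.147) and an r of 0.144 (p = 0.163, adjusted p = 0.196), and the r was 0.120 without libraries 29 and 70. Without libraries above 90 their rho was 0.240 (adjusted p = 0.0464), past the threshold.

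**Figure D3:**
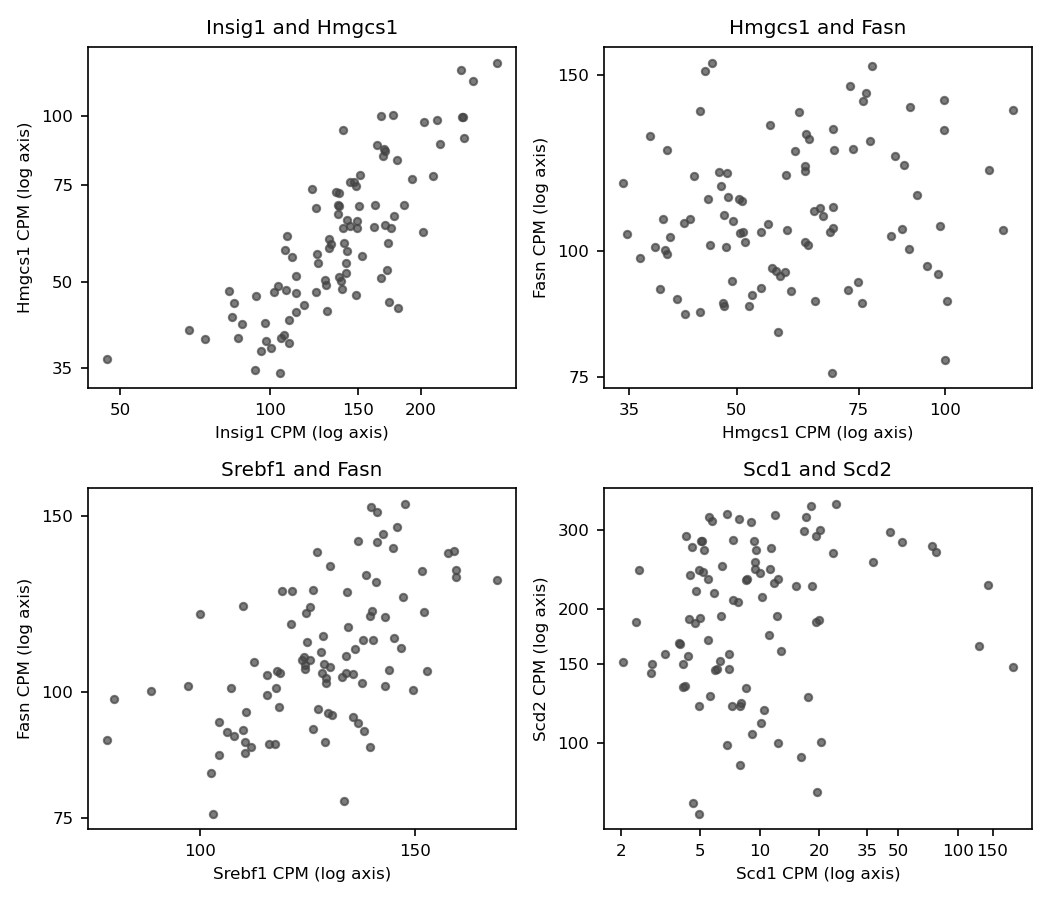
Levels of 4 pairs of genes in 95 islet libraries, as TMM-scaled CPM on log axes, with each point a library. Hmgcs1 climbs with Insig1 (rho 0.786) and Fasn with Srebf1 (rho 0.574), Hmgcs1 and Fasn scatter (rho 0.165), and a few libraries extend Scd1 up to 189 CPM at middling Scd2.

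The mean z score of log2 CPM over a list gave each library a sterol index and a fatty acid index. The sterol index ran from -0.98 in library 3 to 1.10 in library 29, and the fatty acid index from -0.96 in library 21 to 0.93 in library 15. High sterol values came in runs of numbers: libraries 28 to 30 had 0.979, 1.10 and 0.974, and libraries 68 to 70 had 0.849, 1.01 and 1.10. Libraries 3, 8 and 4 were the lowest, at -0.98, -0.94 and -0.93. The fatty acid index was lowest in libraries 21, 97, 4, 20 and 24, and highest in 15, 11, 72, 42 and 16. Library 4 was among the 3 lowest for both. Between each library and the next number, rho was 0.563 for the sterol index and 0.585 for the fatty acid index (n = 94). What the numbers stand for is not given in the labels. The rank correlation between both indices was 0.390, and 0.386 without libraries numbered above 90.

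**Figure D4:**
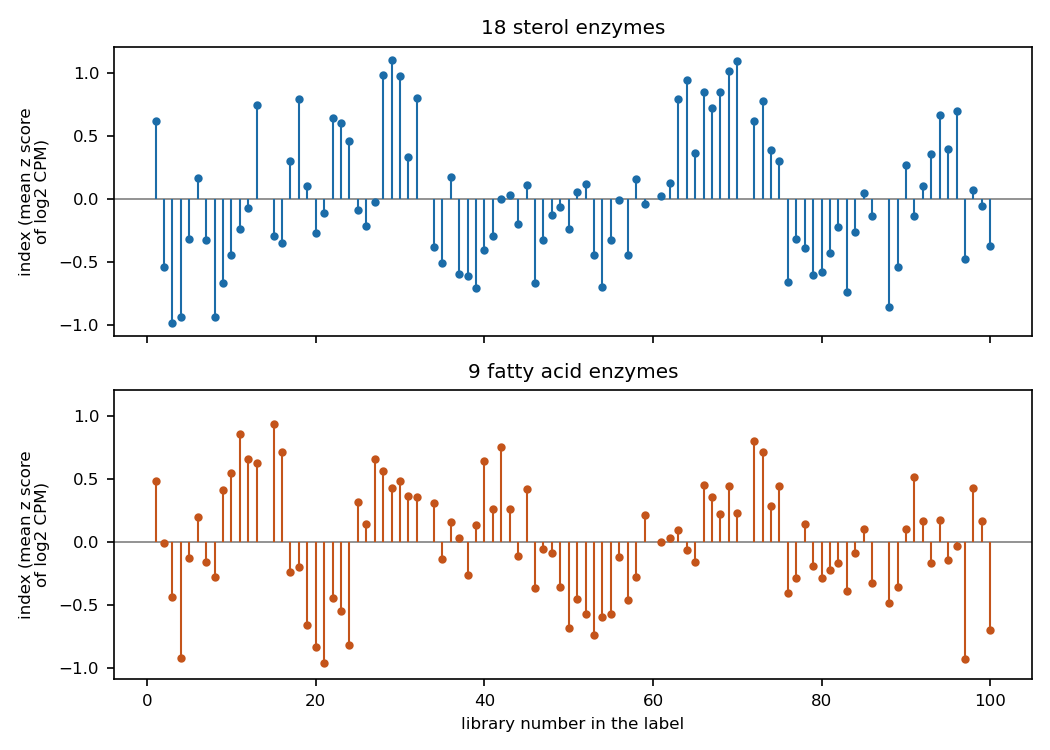
Sterol index (upper panel) and fatty acid index (lower panel) of each library by its number, each the mean z score of log2 CPM over 18 or 9 enzymes. Neighbouring numbers tend to lie on the same side of 0, with sterol maxima of 1.10 in libraries 29 and 70 and fatty acid minima of -0.96 in library 21 and -0.93 in library 97.

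Other genes of both pathways, in lists drawn up with earlier results known, were set beside the indices. Of 19 other sterol genes measured, 0 reached a rho of 0.5 with the sterol index, beside 0.505% of kept genes, and their median was 0.0142. The highest were Cyb5r3 at 0.494, the reductase that passes electrons to sterol oxidases, Acss2 at 0.285, an acetyl-CoA synthetase, and Osbp at 0.210, an oxysterol-binding protein. The lowest were Insig2 at -0.259, the relative of Insig1, and Abcg1 at -0.408, a cholesterol exporter induced by oxysterols. Against Hmgcs1 alone, Cyb5r3 had 0.583 and Abcg1 -0.517. Of 24 other fatty acid genes, 0 reached 0.5 with the fatty acid index, beside 1.43% of kept genes, and their median was 0.0359. Lpin1, a phosphatidate phosphatase, had 0.403, Thrsp, a lipogenic cofactor, 0.375 and Agpat2, an acyltransferase of triglyceride synthesis, 0.328. Mlxipl, which encodes the glucose-responsive factor ChREBP, had -0.420 and the elongase Elovl7 -0.587. With Srebf1, 1 of the 24 reached 0.5, the mitochondrial citrate carrier Slc25a1 at 0.546, named after its value was seen.

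Levels were also set beside the summed shares of cell type markers. These are shares of unscaled total counts, so a larger acinar share lowers the others. Library 54, highest in acinar share, was lowest in the adipocyte, fibroblast and stellate, endothelial, duct, glia and beta cell shares. The macrophage, lymphocyte, alpha and delta cell shares were lowest in other libraries. The rho values of a gene with several shares are thus not separate relations. With the macrophage share, 4 of the 31 genes had an absolute rho of 0.5 or more, beside 4.93% of kept genes: Pmvk at 0.614, Cyp51 at 0.552, Acat2 at 0.536 and Fdps at 0.505. Without libraries above 90 these were 0.569, 0.477, 0.452 and 0.589. The sterol index had a rho of 0.503 with that share, and 0.580 without those libraries. For the fatty acid index these values were 0.272 and 0.353. Its highest rho with a marker share was 0.478 for delta cells, then 0.469 for fibroblast and stellate cells and 0.452 for glia. With total count, the sterol index had -0.268 and the fatty acid index -0.0865. With the lymphocyte share, Acat2 had 0.526, 1 of 31 genes beside 4.98%, and 0.430 without those libraries. With the acinar share it was 2 of 31 beside 5.45%, Acaca at -0.558 and Scd1 at 0.509. Without libraries above 90 it was 4 beside 6.52%, with Acaca at -0.552, Scd1 at 0.505, Mvk at -0.527 and Pmvk at -0.517. Scd2 at 0.548 was 1 of 31 with the fibroblast and stellate share, beside 7.45%, and Acaca at 0.543 was 1 of 31 with the alpha cell share, beside 2.82%. The count was 0 of 31 for the adipocyte, endothelial, duct, glia, beta cell and delta cell shares, beside 5.76%, 4.23%, 1.69%, 4.34%, 6.74% and 4.57% of kept genes. Several of these counts rested on the libraries above 90. Without them, the count with the adipocyte share was 2 of 31 beside 7.25% of kept genes, Pmvk at 0.541 and Hsd17b7 at 0.5004. With the glia share it was 2 beside 6.62%, Acat2 at 0.565 and Scd2 at 0.535, and with the delta cell share 2 beside 6.12%, Scd2 at 0.524 and Acaca at 0.514. Scd2 at 0.530 was then 1 of 31 with the endothelial share, beside 6.51%. The part of these cells in the members' levels was not tested.

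**Figure D5:**
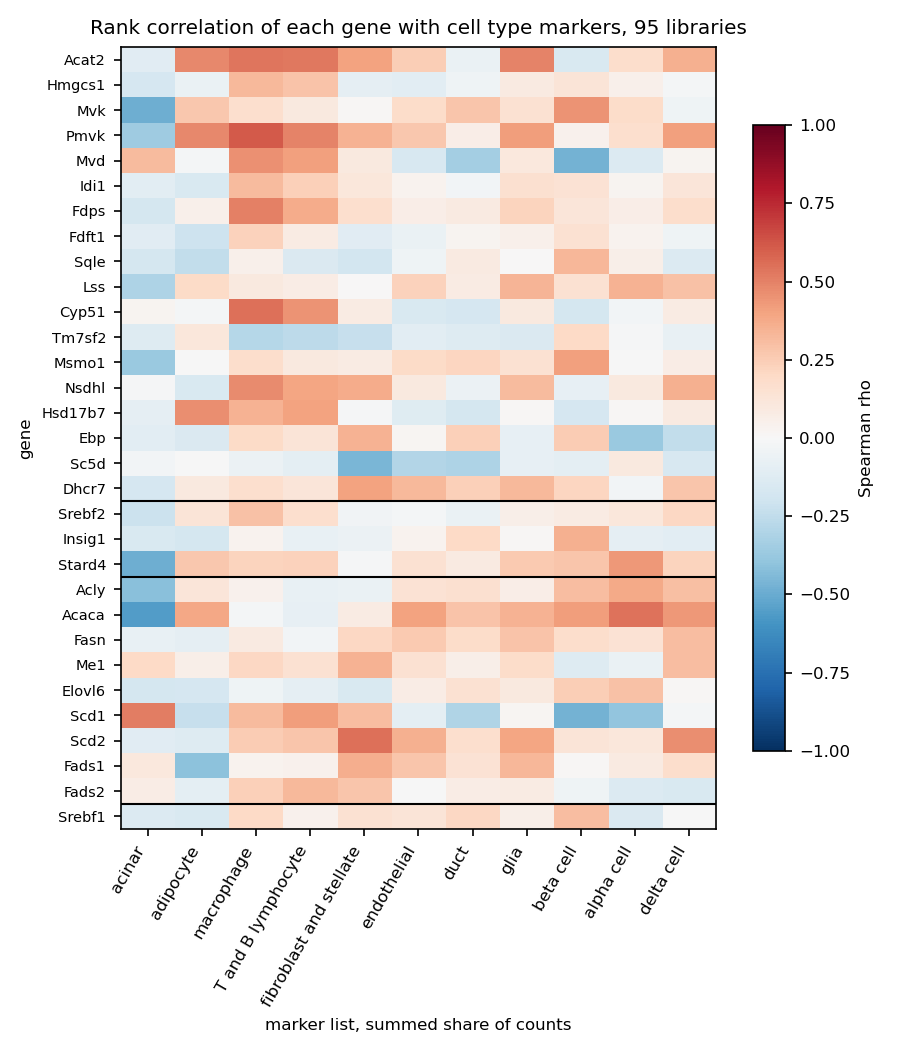
Spearman's rho of each of the 31 genes with the summed share of counts of 11 marker lists over 95 libraries; black lines divide the gene groups as in pathway order. Pmvk with macrophage markers (0.614) is the deepest red cell, and Acaca with acinar markers (-0.558) the deepest blue.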

How the data were processed

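Libraries were made from poly(A) RNA of islets with ERCC controls added, per the labels' protocols. The authors deposited estimated counts per gene, not normalized, of which 67.7% were whole to within 1e-06. They also deposited variance-stabilised values close to a log2 scale, used here as an alternative. The submitters' processing notes name GRCm38 and DESeq2; the aligner, the counter, its strand setting and the annotation were not stated in those sources. Positions came from the authors' gene table, and 22 of the 31 genes had the same span in GENCODE M21, whose exons over all transcripts gave lengths and overlaps.

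The estimated counts were scaled to CPM, without rounding, with TMM factors (0.463 to 1.36) in edgeR 4.0.16 under R 4.3.3. Rounded counts were used for the low-count filter, the DESeq2 size factors and the dispersions. Genes were kept where the unscaled CPM was at least 1 in 10 or more libraries. Log2 CPM had a prior count of 2. Correlations were computed with numpy 2.4.6 in Python 3.11.15. Dispersions used an intercept alone. Among 4465 pairs of libraries, the lowest chi-square per degree of freedom was 8.09, so none was counted as a repeat. Estimated counts are not whole reads, so no counting intervals were formed.

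The members and all lists were chosen with earlier results of these data known. The pairs, the anchors Hmgcs1 and Fasn and the marker lists were set down in advance of this computation, and the anchors Srebf2 and Srebf1 were added later. All 31 members are named. Of other genes, the 10 protein-coding ones most like each index at a median of 1 CPM or more are named, except 1 that is not reported here, and in each list of other pathway genes the 3 highest and 2 lowest. Alternatives were DESeq2 1.42.0 size factors and dispersions, a prior count of 0.5, the deposited values, totals without acinar and hormone genes, removal of the acinar share, no filter, and subsets of libraries. A further alternative, added after seeing the data, left out libraries above 90 for levels, indices and marker shares. The dispersion and permutation steps were tested on simulated data. Steps that need groups were not run, since the labels give none.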

Additional observations from a re-analysis of the deposited data

How the results depend on the processing

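No paired analysis was possible because the labels give no groups. Of the alternatives for relations and counts, 199 stayed on their side of the threshold or within 1.5 times, 3 were weaker, 5 stronger, 18 moved and 5 reversed. The 5 reversals were rho values near 0: Srebf1 with Scd1 was 0.00661 with DESeq2 size factors, 0.0084 with the deposited values, 0.102 with the acinar share removed and 0.0424 without libraries above 90, and Me1 with Fasn was -0.0223 without the 10 lowest totals. In libraries above 50, rho no longer passed the test for Srebf2 with Hmgcs1 (0.248), Fads1 with Fads2 (0.252) and Srebf2 with Srebf1 (0.185), where 47 libraries remained. Past the threshold came Acly with Fasn at 0.225 with the acinar share removed, Hmgcs1 with Fasn at 0.240 without libraries above 90, and Scd1 with Scd2 at 0.238 with DESeq2 size factors, 0.239 with the deposited values and 0.397 with the acinar share removed. Pairs at a rho of 0.5 or more numbered, within the sterol enzymes 48 in libraries above 50, within the fatty acid enzymes 5 in libraries up to 50, and between them 6 up to 50 and 19 above 50, while all pairs of kept genes reached 5.21% and 6.37%. Between the enzyme groups, of 162 pairs, there were also 3 with totals without acinar and hormone genes and 2 without the lowest totals. The share of all pairs is not given here for those settings, so nothing is read from them. Without libraries above 90 there were 4 (2.47%), beside 2.8% of all pairs of kept genes. Of 15840 kept genes, 1203 were like Hmgcs1 up to 50 and 498 above, and 321 and 562 were like Fasn. Members like Fasn numbered 2 with totals without acinar and hormone genes and 2 with the acinar share removed. They numbered 2 up to 50 and 0 above 50. No count of kept genes is given here for the changed totals or acinar share, and nothing is read from these member counts. Without the low-count filter, 7709 genes had a coefficient above 50%. The cause of these shifts was not tested. Depth limits genes such as Hsd17b7 and Mvd, at medians of 5.05 and 5.38 CPM, the most.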

Other observations

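Outside the lists, the protein-coding genes most like the sterol index over the 95 libraries were led by Tuba1a, an alpha-tubulin, with a rho of 0.681 at a median of 415 CPM. Next came 6330403K07Rik at 0.649, Papss1, which makes the sulfate donor of the cell, at 0.620, Gdap2 at 0.609 and Tbrg1 at 0.607. Ube2j1 at 0.593 and Derl2 at 0.588 act in the degradation of proteins of the endoplasmic reticulum, and Tmem41b at 0.585 is a lipid scramblase of that membrane. Tmem59l had 0.592 and Kctd12 0.589.

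Among the genes most like the fatty acid index were Edil3, a secreted matrix protein, at 0.710, Gm8909 at 0.693, Srp14, a subunit of the signal recognition particle, at 0.691 and Cd164l2 at 0.687. Ctnnd1, a catenin of cell junctions, had 0.685, Tmem35 0.682, Csdc2 0.667, Tmtc4 0.663 and Arhgap36 0.662. These values are descriptions over libraries that share depth and cell makeup.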
